A study of Mus musculus with 13 samples.

Results

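The genes described here were the replication-dependent histone genes, taken as every row of the count table whose symbol begins with Hist1h, Hist2h, Hist3h or Hist4h. There were 68 of them among 24421 gene symbols, and the replacement variant H2afz was followed beside them as a comparator. RNA from 13 samples of female MMTV-HER2/Neu mice on the FVB/N background (202Mul/J) was sequenced. In this strain a rat HER2/Neu cDNA is driven by the mouse mammary tumor virus promoter in breast epithelium. Every library, the glands included, came from this transgenic strain, although the genotype label reads wild type. Primary untreated tumors (n = 3) came from mice on plain water, and primary stavudine tumors (n = 3) from mice that drank stavudine, which blocks reverse transcriptase, at 1 mg/mL. The 3 recurrent 17-DMAG tumors grew back in mice injected with 17-DMAG, an HSP90 inhibitor, at 20 mg/kg, and the 2 recurrent 17-DMAG plus stavudine tumors grew back in mice given both agents. The mammary glands (n = 2) were cancer-free and untreated. The labels gave no age for any single library, and did not state that the samples of a group came from separate mice, so p-values measure only the spread between these samples.

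Replication-dependent histone genes supply the core histones H2A, H2B, H3 and H4 and the linker histone H1 that package newly made DNA, and their messenger RNA accumulates in S phase of the cell cycle. These genes lack introns as a rule and their messages end in a conserved stem-loop instead of a poly(A) tail. The stem-loop is bound by the protein encoded by Slbp, while NPAT, encoded by Npat, activates transcription of the gene clusters. H2afz, by contrast, encodes the polyadenylated replacement variant H2A.Z. The libraries here were made from total RNA depleted of ribosomal RNA and not by selection on poly(A), so messages without a tail could enter them.

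The 68 genes lay in 4 clusters: 54 Hist1 genes on chromosome 13, 10 Hist2 genes on chromosome 3, 3 Hist3 genes on chromosome 11 and 1 Hist4 gene, Hist4h4, on chromosome 6 of GRCm38. By the class in their symbols, 6 are H1, 18 H2A, 19 H2B, 12 H3 and 13 H4 genes. Hist3h2bb-ps, counted with the H2B genes, is annotated as a processed pseudogene. The stem-loop was searched for in the GENCODE transcripts of the same build as 6 stem bases that begin with GG and pair perfectly with the last 6, around a 4-base loop that begins with TTT. A match was present in 44 of the 68 genes and in 24 of 21810 other protein-coding genes, or 0.11%. The sites of 7 members are shown because they cover the stem and loop types found. The capitals mark the 16 bases of the stem-loop, whose positions are given, and the lower-case letters are up to 7 flanking bases of the 3′ UTR on each side.
Hist1h1c, chr13:23739512-23739527: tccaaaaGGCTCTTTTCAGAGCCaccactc
Hist1h2bg, chr13:23571843-23571858: acccaaaGGCTCTTTTCAGAGCCacccata
Hist1h3f, chr13:23544932-23544947: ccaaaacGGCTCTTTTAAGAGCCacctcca
Hist2h2ac, chr3:96220418-96220433: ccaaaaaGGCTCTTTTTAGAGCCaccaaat
Hist1h4d, chr13:23581950-23581965: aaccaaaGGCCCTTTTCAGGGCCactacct
Hist2h4, chr3:96262939-96262954: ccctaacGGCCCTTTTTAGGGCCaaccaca
Hist1h4b, chr13:23757366-23757381: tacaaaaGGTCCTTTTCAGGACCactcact

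The stem GGCTCT was found in all 33 matching H1, H2A, H2B and H3 genes, whereas the 11 matching H4 genes had GGCCCT (9 genes) or GGTCCT (2 genes). The loop was TTTC in 35 genes, TTTA in 6 and TTTT in 3. In 22 of the 44 genes the GENCODE transcript model ran on for more than 100 bases past the stem-loop. Examples were 840 bases in Hist1h1c and 1643 in Hist3h2a. The counts were made on the UCSC annotation, which was not examined here. In RefSeq these 2 genes end at positions 23739531 and 58955192, within a few bases of the stem-loop. Whether the counts include reads from beyond the stem-loop was therefore not determined. Some models without a match end at the stop codon or before the site, and no match says only that these letters are not in the model.

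RefSeq promoters of 300 bases were found for 62 members and compared with 32851 mouse promoters. Relative to the start of the gene's RefSeq span, 60 windows held 250 bases before and 50 from the start on, while Hist1h2bp had 245 and 55 and Hist1h2be 220 and 80. The pentamer CCAAT, on either strand, was present in all 6 H1, 18 H2A, 16 H2B and 10 H3 promoters but in 3 of 12 H4 promoters (25%), against 37.4% of all promoters. The octamer ATTTGCAT was present in 7 of 16 H2B promoters (43.8%) and 7 of 18 H2A promoters (38.9%), against 1.74% of all, and in none of the H1, H3 and H4 promoters. The H1 box AAACACA was present in 5 of 6 H1 promoters (83.3%) against 7.18% of all. The TATA box TATAAA was present in 35 of the 62 (56.5%) against 13.6%. Of the H2A and H2B genes, 13 pairs were transcribed away from each other from starts 164 to 281 bases apart, so 1 promoter region with 1 octamer can be counted for both genes of a pair. The promoters of 4 members are shown (GRCm38.p6, 5′ to 3′ on the gene's strand), with any of the 4 motifs on either strand in capitals. Hist1h2bg and Hist2h2ac belong to such pairs, with Hist1h2ae and Hist2h2be, and Hist1h1e and Hist1h4d are among the most abundant H1 and H4 genes.
Hist1h2bg, chr13:23571150-23571449, plus strand: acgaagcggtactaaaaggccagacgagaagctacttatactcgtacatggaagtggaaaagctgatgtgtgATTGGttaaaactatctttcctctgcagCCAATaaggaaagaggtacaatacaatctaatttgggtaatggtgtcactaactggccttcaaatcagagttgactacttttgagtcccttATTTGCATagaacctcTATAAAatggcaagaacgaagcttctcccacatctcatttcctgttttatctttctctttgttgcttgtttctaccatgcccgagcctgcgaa
Hist2h2ac, chr3:96220831-96221130, minus strand: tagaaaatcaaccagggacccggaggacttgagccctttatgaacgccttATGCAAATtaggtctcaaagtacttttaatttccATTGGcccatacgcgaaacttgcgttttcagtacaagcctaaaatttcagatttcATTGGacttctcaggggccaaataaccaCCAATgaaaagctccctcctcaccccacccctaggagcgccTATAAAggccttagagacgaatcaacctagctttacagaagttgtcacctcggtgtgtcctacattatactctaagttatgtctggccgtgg
Hist1h1e, chr13:23622509-23622808, minus strand: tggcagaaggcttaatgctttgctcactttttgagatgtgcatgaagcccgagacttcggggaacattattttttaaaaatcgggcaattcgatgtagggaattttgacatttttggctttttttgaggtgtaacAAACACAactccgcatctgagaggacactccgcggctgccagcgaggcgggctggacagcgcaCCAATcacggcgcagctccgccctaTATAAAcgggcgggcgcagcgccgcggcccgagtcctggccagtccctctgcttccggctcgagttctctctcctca
Hist1h4d, chr13:23581318-23581617, plus strand: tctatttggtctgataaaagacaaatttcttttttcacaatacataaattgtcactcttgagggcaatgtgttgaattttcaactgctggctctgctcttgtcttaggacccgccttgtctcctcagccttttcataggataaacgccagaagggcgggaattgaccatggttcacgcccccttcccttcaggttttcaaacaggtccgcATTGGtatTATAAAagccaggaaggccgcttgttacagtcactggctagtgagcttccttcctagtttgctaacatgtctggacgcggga

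Library totals ran from 39921388 to 56887708 counts. Levels are CPM, counts scaled to library size after TMM, a normalization to the bulk of the genes. The scaling factor was 0.493 in gland 2 and 0.999 to 1.12 elsewhere. The detection floor of 3 counts corresponded to 0.0587 to 0.107 CPM. Milk protein genes took 34.1% of the counts of gland 2. The tissue mix differed between libraries: summed lymphocyte marker CPM was 361 in gland 1, 37.5 in gland 2 and 19.8 to 61.3 in tumors, and adipocyte markers reached 759 and 643 in the glands against 5.23 to 85.6 in tumors. Skeletal muscle markers summed to 1325 CPM in recurrent 17-DMAG plus stavudine replicate 2, 1495 in gland 2 and 810 in primary untreated replicate 1. Luminal epithelium markers summed to 5958 to 21340 CPM. They were at 5958, 10186 and 12008 CPM in recurrent 17-DMAG and 11418, 21340 and 18064 in primary untreated tumors. Myeloid markers ran from 60.7 to 172 CPM, with the highest sum in recurrent 17-DMAG replicate 1. The part of the tissue mix in the tumor comparisons was not tested.

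Of the 68 members, 57 had enough counts to be tested, both over all 13 libraries and over the 11 tumors. The other 11 could not be described by fold changes. Among them, Hist1h2bq, Hist1h2br, Hist1h2ao, Hist1h2ap, Hist2h3c1, Hist2h3c2 and Hist2h2aa1 had no count in any library, and Hist1h4m, Hist2h2aa2, Hist1h2ba and Hist1h2aa had 2, 10, 16 and 2 counts over the 13 libraries. Near-identical copies are the rule in this family. In Hist2h3c1, Hist2h2aa1 and Hist2h2aa2 every window of 100 bases was also found in the transcripts of another gene, and in Hist1h2ao the share was 92.7%. Yet Hist2h3b, also at 100% and sharing windows with Hist2h3c1 and Hist2h3c2, had 6632 counts, so a shared sequence did not always go with a count near 0. Hist2h2bb, at 100% with 25893 counts, shared its windows with Gm20628 and Gm42743 only and with no other member. A shared window can also come from a transcript that overlaps the same stretch of genome, as with Hist1h2be and Hist1h1e. The share is therefore not a measure of near-identical copies alone. How reads with several matches were counted is not given in the sources used here, and values of single copies are therefore less certain than sums over a class.

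**Figure D1:**
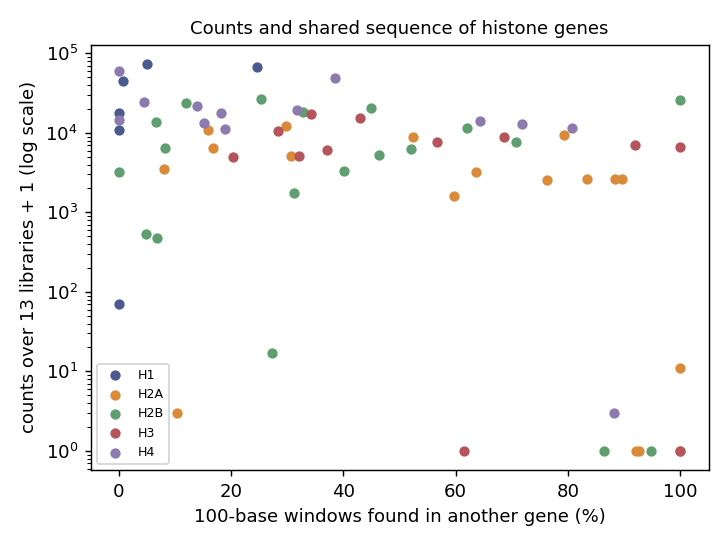
Counts over the 13 libraries plus 1 (log scale) of each of the 68 histone genes against the share of its 100-base transcript windows also found in another gene, colored by class. The 7 genes without a count sit at the bottom at shares of 61.6% or more. Hist2h3b and Hist2h2bb, at 100%, had 6632 and 25893 counts, and Hist2h2bb shared windows with no other of the 68 genes.

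The members together took 0.0402% of all counts in gland 2 (95% Wilson interval 0.0397 to 0.0407) and from 0.0804% (0.0796 to 0.0813) to 0.194% (0.192 to 0.195) in tumors. Such intervals and the floor cover counting error only. H4 genes made up 29.6% to 39.9% of the histone counts of a library, H1 genes 23.6% to 30.2%, H2B genes 16.7% to 24.4%, H3 genes 8.04% or more and H2A genes 5.23% to 10.4%. Mean CPM over the 13 libraries was at least 10 in 40 members and under 1 in 14. Levels of different genes were compared per kilobase of RefSeq span, which could be done for 63 members with a single short span. On that scale Hist1h4d stood highest at 247 CPM per kb, ahead of Hist1h4h at 190, Hist1h1c at 168 and Hist1h1e at 143. Those 4 genes encode histone H4 and linker histones H1.2 and H1.4. At the other end, Hist1h1t, the linker histone of the testis, averaged 0.113 CPM and was at 0 in 4 of the libraries.

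Summed over all members, the 3 primary untreated tumors had 1369, 1254 and 1323 CPM, and the 3 recurrent 17-DMAG tumors had 1828, 1804 and 1786 CPM. The primary stavudine tumors had 1180, 1531 and 1621 CPM, the recurrent 17-DMAG plus stavudine tumors 1262 and 756 CPM, and the glands 1199 and 815 CPM. All 3 recurrent 17-DMAG tumors therefore lay above every other library, and the replicates of the other treated groups were farther apart than theirs. In group means ± SD these were 1315 ± 57.5, 1806 ± 21.2, 1444 ± 233, 1009 ± 358 and 1007 ± 271 CPM in the same order. H2afz was also highest in recurrent 17-DMAG tumors on average, with 74.1, 59.3 and 72.2 CPM in primary untreated, 95.8, 83.6 and 80.0 in recurrent 17-DMAG, 75.3, 85.0 and 76.0 in primary stavudine, 50.0 and 38.1 in recurrent 17-DMAG plus stavudine tumors, and 61.6 and 48.7 in the glands. In bulk tissue, fewer cells of a type and less RNA per cell cannot be told apart.

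**Figure D2:**
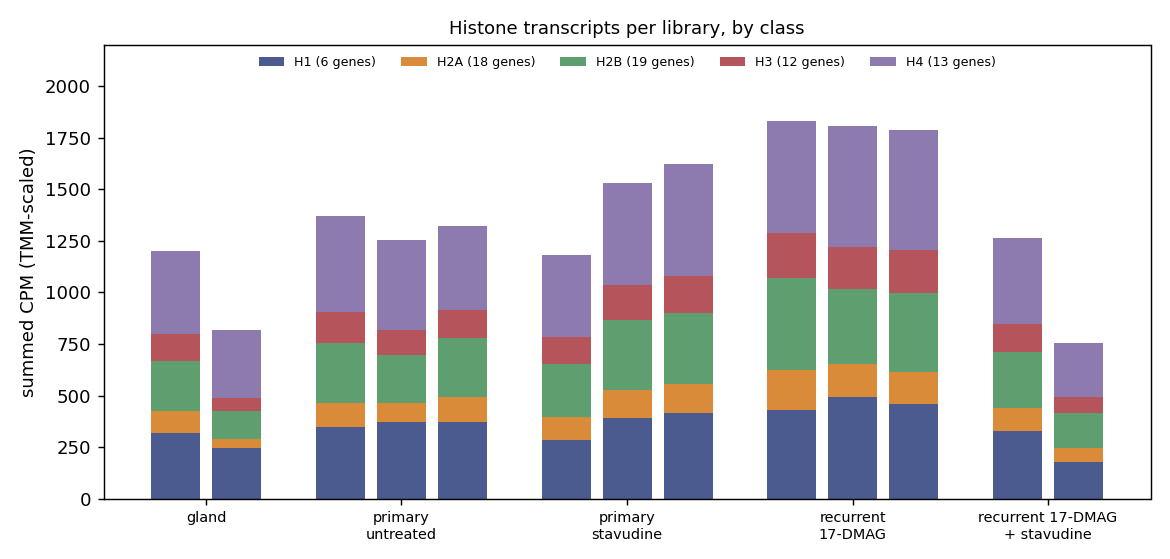
Summed histone CPM on TMM-scaled library sizes (bars from 0) in each of the 13 libraries, replicates in order within a group, split by histone class. The 3 recurrent 17-DMAG bars are the tallest at 1786 to 1828 CPM, and recurrent 17-DMAG plus stavudine replicate 2 is the lowest at 756 CPM.

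In recurrent 17-DMAG against primary untreated tumors, most histone genes were higher, but none passed the test after adjustment. This comparison asks how tumors that regrew under the HSP90 inhibitor differ from untreated primaries. With edgeR's quasi-likelihood test and Benjamini-Hochberg adjustment over 16870 genes, 0 of 57 members and 0% of all genes were called at an adjusted p under 0.05, and DESeq2 called 0 members and 0.362% of all genes. At an unadjusted p under 0.05, 35 members were higher and 0 lower, against 808 higher and 827 lower of all 16870 genes. The 2 groups did not overlap, with all 3 recurrent tumors higher, in 41 of the 57 members against 7.65% of all genes, and in 0 members in the opposite order. The median log2 difference was 0.64 over the members and -0.01 over all genes.

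By class, the median log2 difference in this comparison was 0.74 in 16 H2B genes, 0.70 in 13 H2A and 10 H3 genes, 0.41 in 12 H4 genes and 0.37 in 6 H1 genes. The 3 largest increases were in Hist1h1a, Hist1h2bh and Hist1h2ah. Hist1h1a, which encodes linker histone H1.1, had 19.7, 5.99 and 10.5 CPM in primary untreated and 32.9, 27.0 and 28.6 in recurrent 17-DMAG tumors. The groups did not overlap, and its log2 difference was 1.27 ± 0.38 (SE; edgeR adjusted p = 0.509). Hist1h2bh, an H2B gene, had 11.1, 6.26 and 8.5 CPM against 24.5, 14.1 and 14.2, a log2 difference of 1.02 ± 0.36. Hist1h2ah, an H2A gene with 89.5% of its 100-base windows shared with other genes, rested most on replicate 1, at 9.86 CPM beside 5.36 and 5.65.

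The highest gene of each class was taken by mean CPM, without scaling for length. Of these genes, Hist1h3f, an H3 gene, differed most between recurrent 17-DMAG and primary untreated tumors. It had 28.5, 22.3 and 28.7 CPM in the primaries and 40.4, 42.4 and 38.2 in the recurrent tumors, a log2 difference of 0.59 ± 0.19 (edgeR adjusted p = 0.509). The log2 difference was 0.34 ± 0.22 in Hist3h2a (H2A), 0.28 ± 0.20 in Hist1h4d (H4), 0.11 ± 0.15 in Hist1h2bc (H2B) and 0.08 ± 0.23 in Hist1h1c (H1). None of these 4 stood beyond 2 standard errors. Hist2h2be, an H2B gene, showed the largest decrease among members above the level limit, with 5.10, 7.17 and 6.96 CPM in the primaries and 3.66, 5.90 and 5.14 in the recurrent tumors. Its log2 difference was -0.41 ± 0.27 and the groups overlapped. H2afz had a log2 difference of 0.32 ± 0.14 (edgeR adjusted p = 0.510), less than the median member.

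In recurrent tumors, the log2 difference with stavudine was negative in 56 of 57 histone genes, and the tools disagreed on whether any passed the test. This comparison sets tumors that regrew under 17-DMAG with stavudine against those that regrew without it. The paper reports later relapse in mice given stavudine. Stavudine and the time to regrowth under 17-DMAG therefore cannot be told apart here or in the interaction. In the paper stavudine was started either before tumors appeared or together with 17-DMAG, and the sample titles do not say which. edgeR called 0 of 57 members and 0% of all genes, with the smallest adjusted p among members at 0.240. DESeq2, fitted on the same libraries, called 16 members, all lower, against 1.58% of all genes. At an unadjusted p under 0.05 in edgeR, 51 members were lower and 0 higher, against 739 lower and 584 higher of all genes. Both tumors with stavudine lay below all 3 without it in 53 members against 10.5% of all genes. The median log2 difference was -0.91 over the members and 0.00 over all genes.

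Left to replicate 1 or replicate 2 alone of the recurrent 17-DMAG plus stavudine group, that median was -0.61 or -1.35, and edgeR called 9 members and 0.809% of all genes with replicate 2 alone and 0 members and 0 genes with replicate 1 alone, the lone sample being assumed to vary like the other groups. Replicate 2 was also the library with 1325 CPM of skeletal muscle markers, against 12.3 in replicate 1 and 0.648 to 402 in the 3 recurrent 17-DMAG tumors, and the part of this in the result was not tested.

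The 16 members called lower by DESeq2 in this comparison were 5 H2B, 4 H4, 3 H3, 2 H2A and 2 H1 genes. Hist4h4, the lone gene of its cluster, had 65.5, 61.6 and 51.9 CPM in recurrent 17-DMAG and 33.9 and 22.1 in recurrent 17-DMAG plus stavudine tumors, with a DESeq2 log2 difference of -1.10 ± 0.25 (adjusted p = 0.00188). Hist1h2af, an H2A gene with 79.3% of its 100-base windows shared, had 17.0, 24.6 and 20.5 against 10.3 and 6.12 CPM, and fell by 1.34 on the log2 scale in DESeq2 (adjusted p = 0.00163). Among the highest genes of the classes, Hist1h3f had 27.2 and 15.8 CPM with stavudine, below its 38.2 to 42.4 without it. Its edgeR log2 difference was -0.90 ± 0.22 (adjusted p = 0.288), and it was called by DESeq2 (adjusted p = 0.0150).

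Hist1h1c had 118, 168 and 148 CPM in recurrent 17-DMAG tumors and 110 and 64.4 with stavudine, a log2 difference of -0.73 ± 0.27. Hist1h4d had 100, 130 and 128 against 96.1 and 56.9 CPM (-0.64 ± 0.23), and Hist3h2a 29.8, 25 and 21.4 against 21.0 and 14.6 CPM (-0.51 ± 0.24). Hist1h2bc stood apart with 48.4, 43.9 and 55.3 against 48.2 and 42.4 CPM, a log2 difference of -0.11 ± 0.17 with overlapping groups. The 3 largest decreases were in Hist3h2ba (-1.55 ± 0.61), Hist1h2an (-1.47 ± 0.46) and Hist1h2bh (-1.34 ± 0.42). H2afz had a log2 difference of -0.97 ± 0.16 (edgeR adjusted p = 0.166, DESeq2 adjusted p = 3.65e-05), close to the median member.

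Between recurrent 17-DMAG plus stavudine and primary stavudine tumors, the log2 difference was negative in 55 of 57 members, but edgeR called none and the summed levels overlapped. This comparison shares its recurrent libraries with the preceding one. edgeR called 0 of 57 members and 0% of all genes, and DESeq2 called 1 member against 1.96% of all genes. At an unadjusted p under 0.05 in edgeR, 20 members were lower and 0 higher, against 782 lower and 914 higher of all genes. The groups did not overlap, with both recurrent tumors lower, in 15 members against 17.9% of all genes, a share of the members near the background. When primary stavudine replicate 1 was left out that count was 50, against 24.2% of all genes, and with recurrent 17-DMAG plus stavudine replicate 1 left out it was 53, against 33.4%. On CPM without TMM factors it was 28, against 20.2%. The median log2 difference was -0.51 over the members and 0.01 over all genes.

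The member called by DESeq2 was Hist1h2af, with 14.7, 23.3 and 19.4 CPM in primary stavudine and 10.3 and 6.12 in recurrent 17-DMAG plus stavudine tumors. It fell by 1.22 on the log2 scale in DESeq2 (adjusted p = 0.00666), and its edgeR log2 difference was -1.22 ± 0.28 (adjusted p = 0.313). The next largest decreases were in Hist1h2an (-1.09 ± 0.45) and Hist3h2ba (-0.84 ± 0.60), and no member at a mean log2 CPM of at least 0 had a positive difference. The log2 difference was -0.53 ± 0.26 in Hist1h1c, -0.48 ± 0.23 in Hist1h4d, -0.46 ± 0.22 in Hist1h3f, -0.32 ± 0.24 in Hist3h2a and 0.00 ± 0.16 in Hist1h2bc. H2afz had a log2 difference of -0.84 ± 0.16 (edgeR adjusted p = 0.251, DESeq2 adjusted p = 0.000896), larger in size than that of the median member.

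Between primary tumors with and without stavudine, no histone gene passed the test. This comparison asks what stavudine alone changes. edgeR called 0 members and 0% of all genes, DESeq2 called 0 members and 0.101% of all genes, and at an unadjusted p under 0.05 edgeR found 0 members, against 223 higher and 411 lower of all genes. The groups did not overlap in 3 members with stavudine higher (Hist1h2ak, Hist1h2ad and Hist1h3a), against 5% of all genes, and in 1 member with stavudine lower (Hist1h2bp), against 5.83%. The first count was 34, against 10.8% of all genes, without primary stavudine replicate 1, the tumor with the lowest histone sum of its group. It was 12, against 13.3%, without primary untreated replicate 1, and 5, against 10.8%, without primary untreated replicate 3. The log2 difference was positive in 45 of 57 members (78.9%) against 44.9% of all genes, with a median of 0.20 over the members and -0.03 over all genes.

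The largest increases with stavudine in primary tumors were in Hist1h1a (0.69 ± 0.37), Hist1h2bb (0.53 ± 0.28) and Hist1h3a (0.49 ± 0.26), and the largest decreases in Hist1h2bp (-0.40 ± 0.27), Hist2h2be (-0.17 ± 0.27) and Hist2h2ab (-0.15 ± 0.28), all with an edgeR adjusted p of 1.00. Hist1h1a had 16.5, 19.3 and 23.1 CPM with stavudine, of which replicates 1 and 2 lay below the highest untreated tumor at 19.7. The highest genes of the classes had log2 differences from -0.12 ± 0.23 in Hist1h1c to 0.15 ± 0.22 in Hist3h2a. Hist1h3f (0.15 ± 0.19), Hist1h4d (0.12 ± 0.20) and Hist1h2bc (-0.01 ± 0.15) lay between them. H2afz had a log2 difference of 0.19 ± 0.14.

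**Figure D3:**
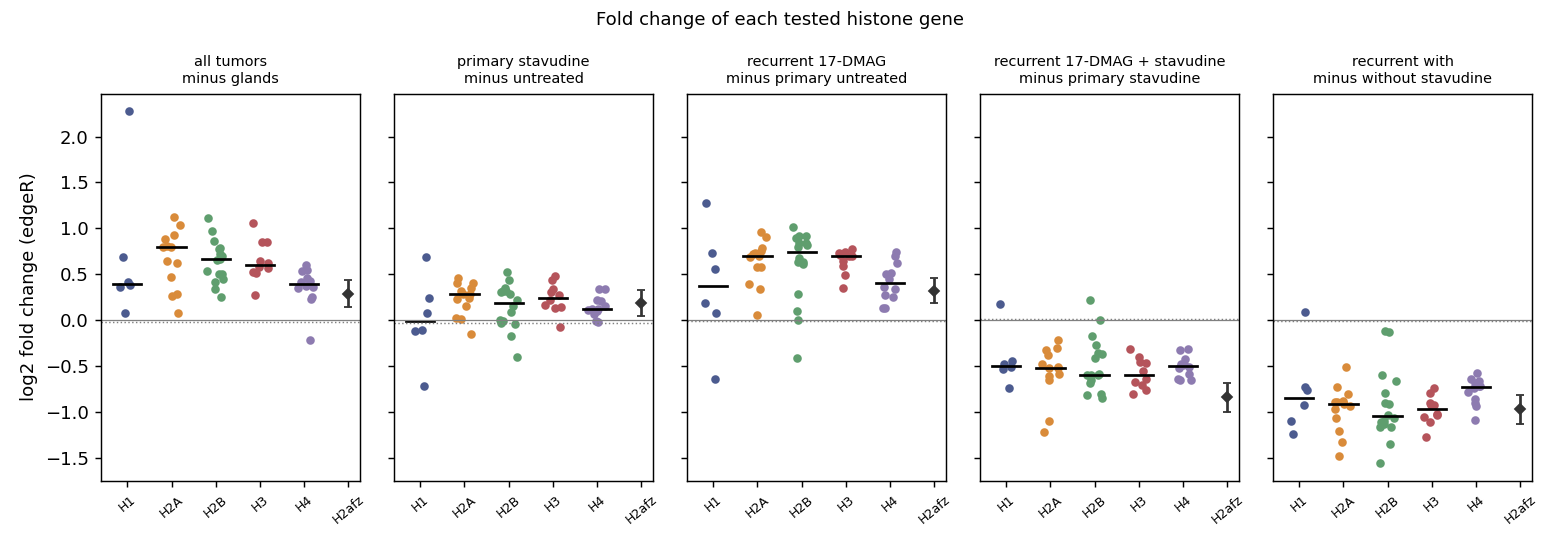
log2 fold change from edgeR (vertical axis) of each of the 57 tested histone genes (points) by class in 5 comparisons, with the median of each class as a black bar, the median of all genes as a dotted line and H2afz as a diamond with its SE. Points lie mostly above 0 for recurrent 17-DMAG minus primary untreated (median 0.64) and mostly below 0 for recurrent with minus without stavudine (median -0.91).

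The change from primary to recurrent tumor was tested for a difference between the plain water and stavudine arms as an interaction. It was negative in 55 of 57 members, with a median of -1.11 on the log2 scale against 0.03 over all genes. edgeR called 0 members and 0% of all genes (smallest adjusted p among members 0.435), and 44 members had a negative interaction at an unadjusted p under 0.05, against 676 of all genes. DESeq2 called 10 members, all negative, against 1.12% of all genes. Without recurrent 17-DMAG plus stavudine replicate 1 the median was -1.55 and edgeR called 3 members and 0.442% of all genes, and without replicate 2 it was -0.82 with 0 members and 0 genes called.

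The members called in the interaction by DESeq2 were 3 H2B, 3 H4, 2 H2A and 2 H3 genes, and no H1 gene. The most negative values in edgeR were in Hist1h2an (-1.83 ± 0.60), Hist1h1a (-1.79 ± 0.57) and Hist1h2bh (-1.69 ± 0.55), and the lone positive one above the level limit was 0.04 ± 0.40 in Hist2h2be. Among the highest genes of the classes it was -1.05 ± 0.29 in Hist1h3f, -0.76 ± 0.31 in Hist1h4d, -0.66 ± 0.33 in Hist3h2a, -0.61 ± 0.35 in Hist1h1c and -0.11 ± 0.22 in Hist1h2bc. H2afz had an interaction of -1.16 ± 0.21 (edgeR adjusted p = 0.435, DESeq2 adjusted p = 0.00116).

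Against the cancer-free glands, the mean of the 4 tumor groups was higher in 56 of 57 members, and 1 of them passed the test. This comparison sets that mean against the tissue of origin, and not each group. Summed over all members, the recurrent 17-DMAG plus stavudine tumors averaged 1009 CPM, about the same as the 1007 CPM of the glands. edgeR called 1 member, higher in tumors, against 10.4% of 17135 genes, a smaller share than the background, and DESeq2 called 7, all higher, against 18.9%. All 11 tumors lay above both glands in 2 members, Hist1h2ad and Hist1h2bc, against 4.14% of all genes. The median log2 difference was 0.55 over the members and -0.02 over all genes.

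The 2 glands differed between themselves, with 1199 and 815 CPM summed over all members. Without gland 1, which held 361 CPM of lymphocyte markers, edgeR called 29 members higher in tumors, but also 24.2% of all genes, and the median was 1.08. All tumors then lay above the remaining gland in 34 members and 24.7% of all genes. Without gland 2, which was rich in milk protein messages, 0 members and 3.01% of all genes were called and the median was 0.27. Without recurrent 17-DMAG plus stavudine replicate 2, the tumors lay above both glands in 8 members and 5.31% of all genes. The part of the tissue mix in this comparison was not tested.

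Hist1h2ad, the called gene, encodes an H2A and shares 63.6% of its 100-base windows with other genes. It had 3.19 and 1.93 CPM in the glands and from 3.44 to 8.38 CPM in the tumors, a log2 difference of 1.12 ± 0.28 (edgeR adjusted p = 0.0328). Its adjusted p was 0.0501 with limma voom, and the call was lost without any of 8 of the 13 libraries in turn. The next largest increases were in Hist1h2bl (1.11 ± 0.38) and Hist1h3g (1.06 ± 0.34), and the one decrease was in Hist1h4c, with 34.3 and 48.0 CPM in the glands against 23.7 to 45.2 in tumors (-0.21 ± 0.18). Hist1h2bc had 31.1 and 36.9 CPM in the glands and 38.5 to 55.3 in tumors, a log2 difference of 0.44 ± 0.15 (edgeR adjusted p = 0.0825, DESeq2 adjusted p = 0.0444). The log2 difference was 0.80 ± 0.37 in Hist3h2a, 0.53 ± 0.24 in Hist1h3f, 0.39 ± 0.25 in Hist1h1c, 0.25 ± 0.19 in Hist1h4d and 0.29 ± 0.15 in H2afz.

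**Figure D4:**
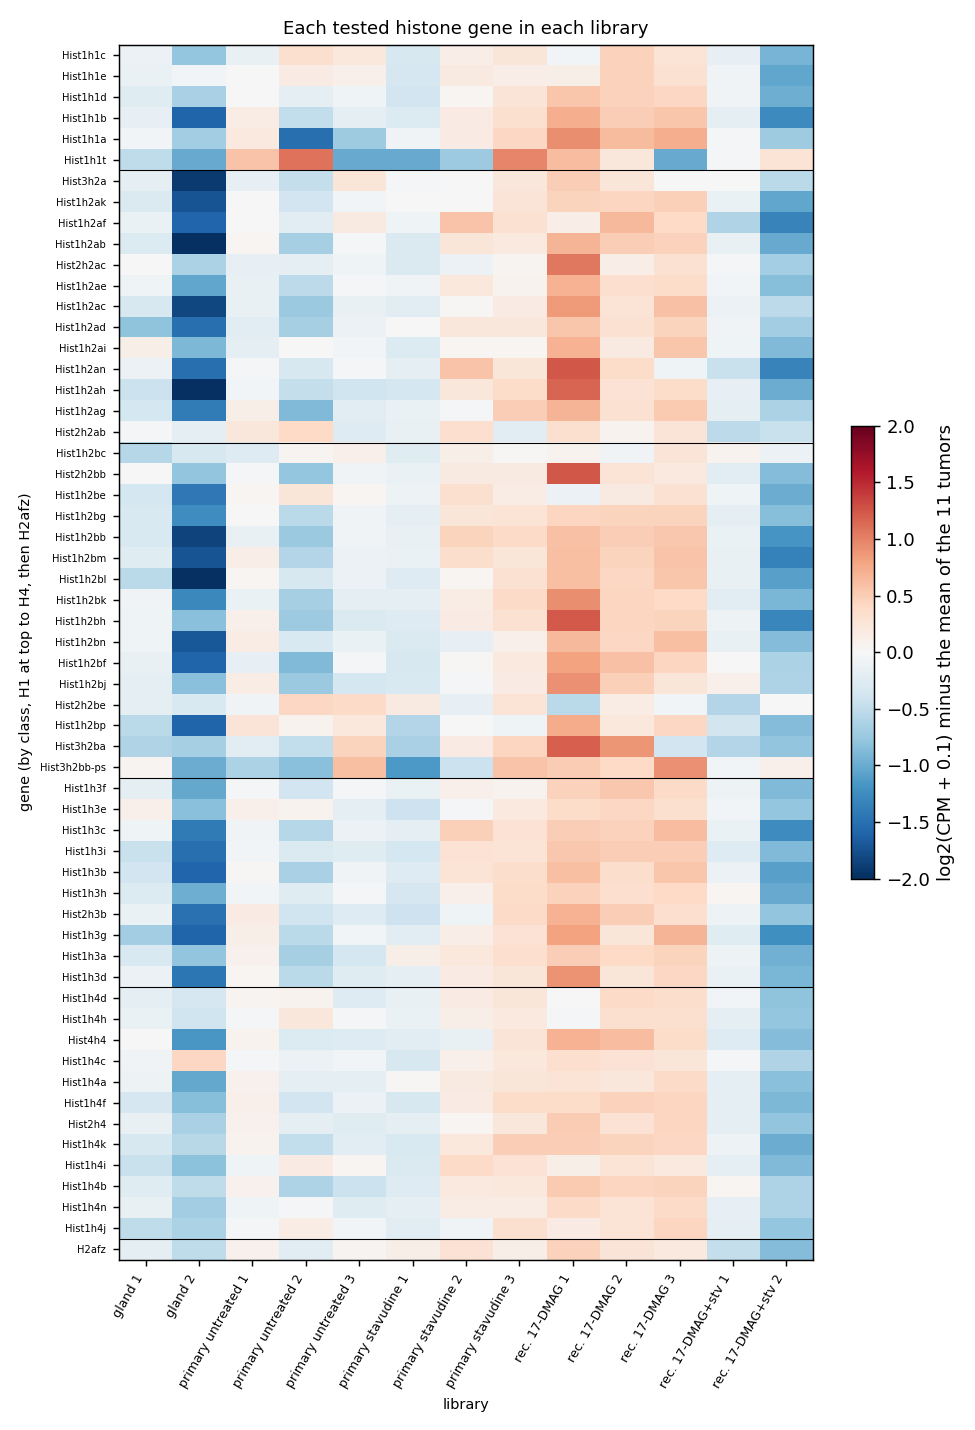
log2(CPM + 0.1) of each of the 57 tested histone genes and H2afz (rows, by class and then by mean level) in each of the 13 libraries (columns), minus the gene's mean over the 11 tumors. The 3 recurrent 17-DMAG columns are mostly red, gland 2 and recurrent 17-DMAG plus stavudine replicate 2 mostly blue, and Hist1h2bc and Hist2h2be do not follow this pattern.

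Across the 11 tumors the members moved largely together, as a description over libraries that share groups and depth. The median Pearson r between pairs of members was 0.83, and 1516 of 1596 pairs had an r above 0. The r of each member's log2 CPM with the mean log2 CPM of 22 S phase and DNA replication genes, such as the MCM helicase subunits and Pcna, had a median of 0.85, with 51 of 57 above 0.5. Over the 16848 tested genes outside that list the median was -0.02 and 11.4% were above 0.5. Leaving out each tumor in turn, the median of the members ran from 0.77 to 0.89. The r was 0.92 in Hist1h1b and 0.91 in Hist1h1a, 0.80 in H2afz and 0.71 in Mki67, the proliferation marker.

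Members with the lowest r to the S phase genes were Hist2h2be (-0.42), Hist1h1t (-0.17), Hist1h2bc (0.23), Hist3h2bb-ps (0.35), Hist2h2ab (0.35) and Hist1h1c (0.40). They differ in level, since Hist1h1c and Hist1h2bc have the highest mean CPM of their classes and Hist1h1t averaged under 1 CPM. No stem-loop match was found in the transcript models of Hist2h2be, Hist1h2bc, Hist3h2bb-ps and Hist2h2ab, while Hist1h1c and Hist1h1t had one. Over all members, 44 of 68 had a match. The models of members with a high r, such as Hist1h3g (0.93), Hist1h1b (0.92) and Hist1h1a (0.91), also lacked one. Over the tumors Hist1h2bc varied 1.44-fold from the lowest to the highest, less than H2afz at 2.52-fold. The linker histone genes differed among themselves, with r from 0.92 in Hist1h1b to 0.57 in Hist1h1e and 0.40 in Hist1h1c.

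Divergent gene pairs, which face away from each other across a shared promoter region, were described in the same way. Among 10 H2A and H2B pairs with both genes tested, the r of log2 CPM over the 11 tumors had a median of 0.92, beside 0.83 over all 1596 pairs of members, and this difference was not tested. It was 0.97 in Hist1h2ah with Hist1h2bk and 0.95 in Hist1h2ae with Hist1h2bg, whose promoter is printed above. The exceptions were Hist2h2ac with Hist2h2be (-0.46), whose promoter region is also shown, Hist1h2ac with Hist1h2bc (0.39) and Hist3h2bb-ps with Hist3h2a (0.54). Hist2h2ac had 22.5, 11.9 and 13.4 CPM in recurrent 17-DMAG tumors, and its partner Hist2h2be 3.66, 5.90 and 5.14 CPM in the same tumors, so the tumor highest in the one was lowest in the other.

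**Figure D5:**
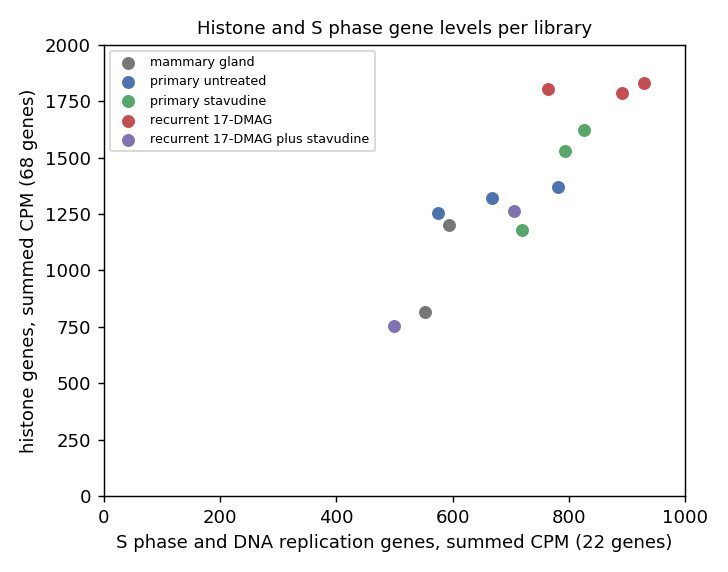
Summed CPM of the 68 histone genes (vertical axis) against summed CPM of 22 S phase and DNA replication genes (horizontal axis), 1 point per library, colored by group. The recurrent 17-DMAG tumors lie highest on the vertical axis and recurrent 17-DMAG plus stavudine replicate 2 lies lowest on both axes.

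The ratio of histone counts to counts of the S phase genes was 1.75, 2.19 and 1.98 in primary untreated tumors, 1.64, 1.93 and 1.96 in primary stavudine tumors and 1.97, 2.36 and 2.0 in recurrent 17-DMAG tumors. It was 1.79 and 1.51 in recurrent 17-DMAG plus stavudine tumors and 2.02 and 1.47 in the glands, so on this scale both recurrent 17-DMAG plus stavudine tumors still lay below all 3 recurrent 17-DMAG tumors. Primary untreated tumors overlapped with recurrent 17-DMAG tumors, and primary stavudine tumors overlapped with recurrent 17-DMAG plus stavudine tumors. Histone counts per H2afz count were 25.3 and 19.9 in recurrent 17-DMAG plus stavudine tumors and 19.1, 21.6 and 22.3 in recurrent 17-DMAG tumors. On that scale the recurrent tumors with and without stavudine overlapped. Between recurrent tumors with and without stavudine the median log2 difference was -0.45 in the 22 S phase genes and -0.91 in the histone genes. In recurrent 17-DMAG against primary untreated tumors the medians were 0.42 and 0.64. For the proliferation markers Mki67 and Top2a the medians were -1.50 and 0.46 in the same order. None of these medians was tested against another.

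The genes that make and process histone messages showed median differences near 0. Of 19 genes for histone transcription and messenger RNA processing, all tested, edgeR called 1, lower in tumors than in glands, and 0 in each tumor comparison, and the median log2 difference lay between 0.00 and 0.05 in all 6 contrasts. Slbp had log2 differences of 0.22 ± 0.15 in recurrent 17-DMAG against primary untreated tumors and 0.02 ± 0.17 in recurrent tumors with against without stavudine. For Npat they were 0.01 ± 0.10 and -0.03 ± 0.11. Slbp had an r of 0.46 and Npat of 0.20 with the S phase genes.

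The chaperones that carry new histones to replicating DNA, such as the CAF-1 and ASF1 subunits, had medians of 0.33 in recurrent 17-DMAG against primary untreated tumors and -0.33 in recurrent tumors with against without stavudine, with 0 of 10 called by edgeR in any comparison. The 6 replication-independent chaperones, which include Hira and Daxx, had medians of 0.06 and -0.03 in the same comparisons, with 0 called. Of 11 replacement histone variants, 0 were called, and their medians were 0.13 and -0.52. Mki67 had a log2 difference of 0.34 ± 0.28 and then -1.85 ± 0.33 (edgeR adjusted p = 0.166, DESeq2 adjusted p = 2.75e-05). Summed Mki67 and Top2a CPM was 298 and 130 in recurrent 17-DMAG plus stavudine tumors, below the 415 to 690 of the other tumors.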

How the data were processed

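Total RNA from 11 tumors and 2 glands was depleted of ribosomal RNA and sequenced as stranded libraries. The deposited values are raw counts per gene, not normalized: according to the methods and the submitters' processing notes, the authors converted reads with bcl2fastq 2.20, aligned them to mm10/GRCm38 with STAR on the UCSC annotation and counted them with featureCounts (Subread 1.6.2). The strand setting and the handling of multi-mapping reads are not given in the sources used here. In every library 79.5% to 82.5% of counts between 2 and 9 were even, as when each read of a pair is counted, in which case counting intervals are too narrow. Without a known strand setting, overlapping and antisense genes cannot be told apart.

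Groups were taken from the labels. Counts were tested with edgeR 4.0.16 in R 4.3.3 (filterByExpr on the groups, TMM, robust quasi-likelihood test, two-sided), with Benjamini-Hochberg adjustment over all genes tested and calls at an adjusted p under 0.05. The authors used DESeq2; here DESeq2 1.42.0 and limma 3.58.1 (voom) were alternatives. The gland contrast was fitted on 13 libraries and 17135 genes, and the tumor contrasts on 11 tumors and 16870 genes. Fold changes are given with standard errors, from edgeR unless another tool is named. Those of edgeR were calculated as the size of the log2 difference divided by the square root of the test's F statistic. They are therefore not independent of its p-value. Correlations used log2 CPM with a prior count of 2, except those within divergent pairs, which used log2(CPM + 0.1). Groups do not overlap when every sample of one lies above every sample of the other in CPM.

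Totals of 39921388 to 56887708 counts put the floor of 3 counts at 0.0587 to 0.107 CPM. Levels per kb used RefSeq spans (GRCm38.p6), without 5 members of long or multi-exon span. Stem-loops, shared windows (either strand) and positions came from GENCODE M21 transcripts on GRCm38, in which all 68 members were found, and promoters from RefSeq. The genes named in each comparison were H2afz, the member of highest mean CPM in each class, every called member, and, at a mean log2 CPM of at least 0, the 3 largest increases and 3 largest decreases, with Slbp, Npat and Mki67 from outside; others, such as members called by DESeq2 and those of lowest or highest correlation, were chosen after their values were seen. The members and the 12 gene lists were chosen with earlier results of these data known. The edgeR fit was tested on simulated data.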

Additional observations from a re-analysis of the deposited data

Results flagged for a closer look

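In 11 members the change from primary to recurrent tumor went in opposite directions in the 2 arms in every sample: all recurrent 17-DMAG tumors lay above all primary untreated tumors, and both recurrent 17-DMAG plus stavudine tumors lay below all primary stavudine tumors. The same held in 242 of all 16870 genes tested (1.43%), against 19.3% of the 57 members. Their interactions on the log2 scale were -1.56 in Hist1h2bk, -1.49 in Hist2h2bb, -1.48 in Hist1h3g, -1.48 in Hist1h2bm, -1.41 in Hist1h3a, -1.32 in Hist1h2ag, -1.26 in Hist1h2ad, -1.21 in Hist1h2bg, -1.20 in Hist4h4, -1.19 in Hist1h2ak and -1.0 in Hist1h4a. None of the 11 passed the test of the difference in edgeR (adjusted p from 0.435 to 0.572). In DESeq2, Hist1h2bk (adjusted p = 0.0240), Hist4h4 (0.0272), Hist1h4a (0.0282), Hist1h2ad (0.0342), Hist1h2bg (0.0351) and Hist1h3a (0.0437) did. The 11 were chosen on the same values that these tests use. Taken alone, the plain water condition held in 41 members against 7.65% of all genes. The stavudine condition alone held in 15 members against 17.9%. With a library left out its member count ran from 15 to 53, against 22.8% to 33.4% of all genes.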

How the results depend on the processing

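The median differences of the members kept their direction under every alternative run: RLE size factors, DESeq2, limma voom, no filter on low counts, milk genes left out, only the groups compared, a replicate block and leaving out each library. Counts of calls changed more. For all tumors against glands, edgeR called 1 member and 10.4% of all genes, and DESeq2 7 members and 18.9%. Limma voom called 0 members and 8.83% of all genes, and the replicate block 0 members and 2.17%. In recurrent 17-DMAG plus stavudine against primary stavudine tumors DESeq2 called 1 member and 1.96% of all genes. It called 16 and 1.58% in recurrent tumors with against without stavudine, and 10 and 1.12% in the interaction. Limma voom called 0 members and 0% of all genes in each, and the cause was not tested. CPM without TMM factors was an alternative chosen after seeing the data. On it, 1 member and 3.78% of all genes did not overlap between tumors and glands, with tumors higher. Between recurrent 17-DMAG plus stavudine and primary stavudine tumors it was 28 members and 20.2% of all genes, with the recurrent tumors lower. Without TMM the sums of the tumor groups moved to 1376 CPM in primary untreated and 1913 in recurrent 17-DMAG.

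Leaving out each library in turn, the gland comparison gave 0 to 29 calls, medians of 0.27 to 1.08 and 2 to 34 members without overlap. Calls ran from 0 to 9 and medians from -1.35 to -0.61 in recurrent tumors with against without stavudine, and from 0 to 3 and -1.55 to -0.82 in the interaction. In recurrent 17-DMAG plus stavudine against primary stavudine tumors the median ran from -0.96 to -0.22 and members without overlap from 15 to 53, and in primary tumors with against without stavudine the latter ran from 3 to 34. Single genes near 0 changed sign: against glands Hist1h4c (-0.40 to 0.14) and Slbp (-0.019 to 0.55); in the interaction Hist2h2be (-0.33 to 0.26); in recurrent 17-DMAG against primary untreated Hist1h1c (-0.049 to 0.23), Hist1h2bc (-0.0013 to 0.21) and Npat (-0.024 to 0.059); in recurrent 17-DMAG plus stavudine against primary stavudine Hist1h2bc (-0.11 to 0.082) and Npat (-0.085 to 0.024); in recurrent tumors with against without stavudine Npat (-0.098 to 0.016) and Slbp (-0.061 to 0.12); and in primary tumors with against without stavudine Hist1h1c (-0.25 to 0.050), Hist1h2bc (-0.11 to 0.11), Hist2h2ab (-0.35 to 0.021), Mki67 (-0.14 to 0.17) and Npat (-0.033 to 0.056).

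In the same primary comparison, Hist1h2bc, Npat and Mki67 also turned to 0.0071, 0.0137 and 0.0090 with RLE size factors, 0.0072, 0.0136 and 0.0090 with DESeq2, 0.0145, 0.0208 and 0.0167 without the filter, 0.0143, 0.0211 and 0.0163 without milk genes and 0.0163, 0.0228 and 0.0160 with only the groups compared. Hist1h2bc turned to 0.0028 with voom in recurrent 17-DMAG plus stavudine against primary stavudine tumors, and Hist2h2be to -0.0077 without milk genes in the interaction.

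Samples with the same replicate number did not deviate together (15 pairs, r from -0.295 to 0.227), and 2 of 11 tumors correlated best with their own number. In a group of 2 the deviations mirror each other. Whether same-numbered samples share more than a number can therefore not be told from this. The replicate block called 0 members in every comparison, against 2.17% of all genes for the glands and 0% in each tumor comparison. Its medians were 0.55 against glands, 0.21, 0.64, -0.51, -0.89 and -1.13 in the interaction. The block turned Mki67 to 0.0206 in primary tumors and Slbp to -0.0155 in recurrent tumors. Hist1h2bc turned to 0.0628 in recurrent 17-DMAG plus stavudine against primary stavudine. Groups of 2 and 3 and shared sequence between copies limit what can be said of single genes.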
